A study of Mus musculus with 48 samples.

Results

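Axon guidance ligands and receptors were followed in 48 RNA-seq libraries of sorted mouse enteroendocrine cells, the hormone-secreting cells of the gut epithelium. The genes were taken by name alone: every protein-coding gene whose symbol belongs to the semaphorins (Sema3 to Sema7), plexins (Plxn), neuropilins (Nrp1 and Nrp2), ephrins (Efn), Eph receptors (Epha and Ephb), Slits, Robos, netrins (Ntn) and their receptors Dcc and Unc5. That gave 68 of the 53465 genes in the count table, namely 20 semaphorins, 11 plexins and neuropilins, 8 ephrins, 14 Eph receptors, 7 Slits and Robos, and 8 netrins, Dcc and Unc5 genes. The rule used symbols and no measured value, while the genes, lists and tests were chosen with earlier results of these data known.

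The cells came from lean male Neurod1-cre-eYFP mice on a C57BL6 background, in which Cre driven by the Neurod1 promoter turns on a yellow fluorescent reporter, so that the sort collects every epithelial cell with present or past Neurod1 expression and not 1 hormone cell type. Mice had vertical sleeve gastrectomy (VSG), in which most of the stomach is removed, or a sham operation, and sham mice were fed ad libitum or held to the weight of the VSG mice. All were kept on chow apart from a liquid diet around the operation, and all were given oral glucose before tissue was taken. Cells were sorted from the top 5 cm of the small intestine (called duodenum), the bottom 15 cm (ileum) and the colon with the rectum (colon). Each region held 16 libraries, with 6 from VSG mice and 5 from each kind of sham mice, and 15 of the 17 mice gave all 3 regions. Nothing in the labels says whether any library was a pool, and p-values measure the spread between these libraries.

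Guidance cues are secreted or membrane-bound proteins that attract or repel a growing axon through receptors on its tip. Semaphorins signal through plexins, and most secreted class 3 semaphorins need a neuropilin as co-receptor. Membrane-bound ephrins bind Eph receptor tyrosine kinases on neighbouring cells, Slits bind Robos, and netrins bind Dcc, Unc5 and neogenin. In the gut epithelium the best-known members are ephrin-B ligands with their receptors Ephb2 and Ephb3, which keep cell types in place along the crypt.

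The summed counts of a library lay between 4648651 and 17182463 (median 6713018), and levels are given as CPM, a count divided by its library total after scaling for library composition and set to a common depth. One library stood apart: in the duodenum library of weight-matched mouse 27 the summed level of 9 enteroendocrine markers was 12091 CPM, against 38894 to 74635 CPM in the other 15 duodenum libraries, and that of 8 enterocyte markers was 35153 CPM against 4417 to 12536 CPM. For mouse 12 the labels of the ileum and colon libraries cross with their description codes, and the tissue label was used. Its library labelled ileum had 27.1 CPM of Nrp2 and 0.141 CPM of Robo1, and that labelled colon had 227 and 42.5 CPM. Libraries labelled ileum ran from 12.1 to 31.7 CPM of Nrp2 and 0 to 1.11 CPM of Robo1. Those labelled colon ran from 133 to 539 and 9.64 to 53.4 CPM, so these genes went with the tissue label. In these bulk libraries fewer cells that express a gene and less RNA per cell cannot be told apart. The enteroendocrine marker sum had a median of 56496 CPM in the duodenum, 44078 CPM in the ileum and 47080 CPM in the colon, and no marker of the 13 cell type lists was at 0 in every library. That sum is mostly the granins Chga and Chgb, while of the 9 markers 6 fell and 1 rose between duodenum and colon, 6 fell between ileum and colon, and 5 fell between duodenum and ileum. In duodenum, ileum and colon the means were 1092, 412 and 31.6 CPM for Scg2, a granin of secretory granules, 935, 754 and 113 CPM for the prohormone convertase Pcsk1, 112, 58.3 and 10.5 CPM for the transcription factor Isl1 and 660, 412 and 255 CPM for Neurod1, the gene behind the sort. Marker sums of other epithelial cells moved with the region. The enterocyte sum was 5834, 7350 and 749 CPM (medians of duodenum, ileum and colon), the Paneth cell sum 290, 2485 and 4.96 CPM, the crypt and stem cell sum 1302, 2417 and 557 CPM, and the proliferation sum 256, 352 and 100.3 CPM, while the goblet cell sum was 3464, 3882 and 9231 CPM, the colonocyte sum 185, 413 and 1785 CPM and the tuft cell sum 21.6, 24.9 and 37.8 CPM. Not every marker followed its sum. Between duodenum and colon 4 goblet markers passed as higher and 1 as lower, and Tff3 had means of 207, 164 and 125 CPM along the 3 regions. Car1 made up the largest part of the colonocyte sum in the colon (mean 859 CPM). Against the duodenum 2 enterocyte markers were higher and 2 lower in the ileum. Sums for cells outside the epithelium had medians of at most 24.1 CPM in any region, that being the endothelial list in the ileum, and were lower for immune cells, fibroblasts and muscle, enteric neurons and enteric glia. The part of these cell types in the differences described here was not tested.

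Guidance ligands and receptors were broadly present. Of the 68 genes, 50 passed the filter on low counts and were tested, and the other 18 had a highest mean of 0.711 CPM in any region and no library over 3.91 CPM. Those 18 were Epha5, Epha6, Epha8, Epha10, Ephb1, Robo3, Robo4, Efna5, Efnb3, Dcc, Ntn1, Ntn5, Unc5c, Unc5d, Plxnb3, Sema3a, Sema3g and Sema5b, so the netrin receptor Dcc, netrin-1 and the secreted semaphorin Sema3a were among the genes too low to test. Levels of different genes are compared per kilobase of exon. On that scale Plxnb2, the receptor of class 4 semaphorins, led in every region, with a mean of 59.3, 58.3 and 68.8 CPM per kb in duodenum, ileum and colon. The ephrins Efnb1 (21.9, 24.7 and 30.1 CPM per kb) and Efna1 (13.99, 17.1 and 22.8), the transmembrane semaphorin Sema4a (21.4, 21.9 and 19.1) and the receptor Ephb4 (16.1, 23.9 and 24.3) were among those that followed. Nrp2 reached 22.01 CPM per kb and Sema3c 18.8 in the colon, where they were among the leading genes, against 1.64 and 3.75 in the duodenum. Among netrins and their receptors Unc5a led in the duodenum (12.7, 8.44 and 6.28 CPM per kb) and Ntn4 in the ileum and colon (10.03, 10.9 and 13.1), and Slits and Robos were low, with Slit1 at 2.67 CPM per kb in the duodenum and Robo2 at 1.62 in the colon.

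**Figure D1:**
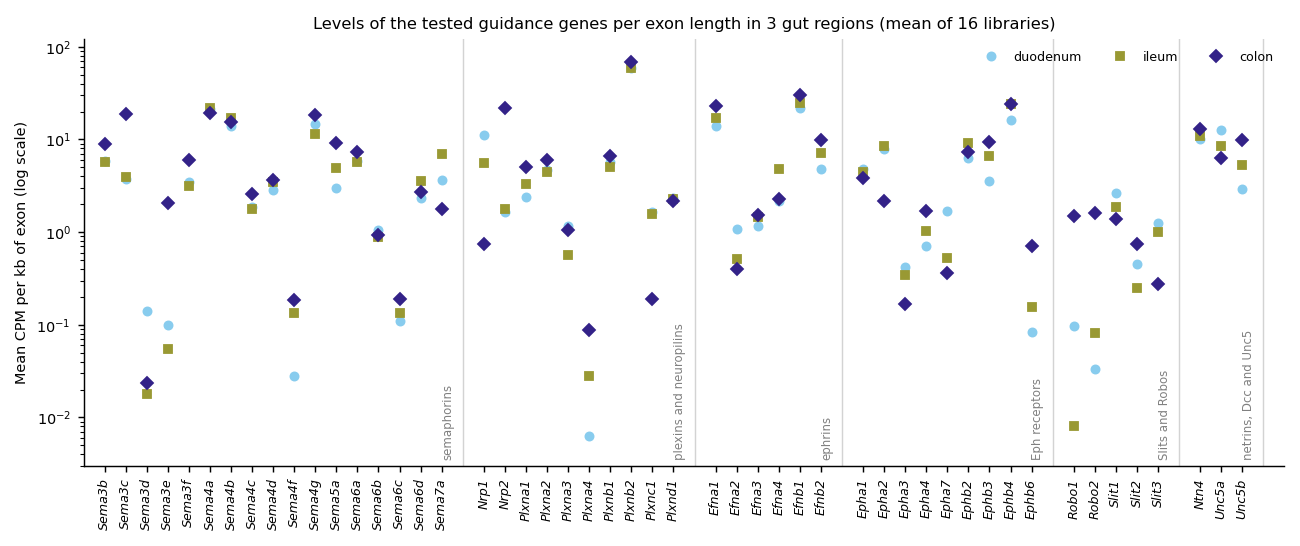
Mean level of each of the 50 tested guidance genes per kilobase of exon (log scale) in the duodenum (circles), ileum (squares) and colon (diamonds), each the mean of 16 libraries. Plxnb2 lies highest in all 3 regions, while Nrp1, Nrp2, Sema3c, Sema3e, Robo1 and Robo2 have a colon level far from the small intestinal ones.

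The first question was whether these genes differ along the gut, with each region averaged over the 3 operations. Between ileum and duodenum 28 of 50 tested genes passed an adjusted p of 0.05, 17 higher and 11 lower in the ileum, where 33.8% of all 15126 genes tested passed. Between colon and duodenum 38 passed (27 higher, 11 lower in the colon), where 55.0% of all genes did, and between colon and ileum 38 passed (25 higher, 13 lower), where 49.2% of all genes did. Over all genes 17.2% were higher and 16.6% lower in the first comparison, 26.8% and 28.3% in the second and 23.8% and 25.4% in the third. The shares of the guidance genes were 56%, 76% and 76%. Their median log2 fold change was 0.04, 0.35 and 0.29 in the 3 comparisons, beside 0.00, -0.01 and -0.01 over all genes tested. Altogether 44 genes differed in at least 1 comparison and 19 in all 3. Among the 19, a call of Epha7, Slit1, Sema3e, Plxna4 and Robo2 was lost in 10, 11, 12, 3 and 3 of the 17 fits that left out 1 mouse.

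By these calls 23 genes were higher in the colon than in both small intestinal regions and 9 were lower there than in both. Higher in the colon were Sema3b, Sema3c, Sema3e, Sema3f, Sema4c, Sema4g, Sema5a, Nrp2, Plxna1, Plxna2, Plxna4, Plxnb2, Efna1, Efnb1, Efnb2, Epha4, Ephb3, Ephb6, Robo1, Robo2, Slit2, Ntn4 and Unc5b. Lower in the colon were Sema7a, Nrp1, Plxnc1, Epha2, Epha3, Epha7, Slit1, Slit3 and Unc5a. The colon against ileum calls of Epha7, Slit1 and Ntn4 (adjusted p = 0.0405, 0.0489 and 0.0419) were lost in 10, 11 and 9 of the 17 fits that left out 1 mouse. Among genes in neither the higher nor the lower colon list, the ileum was highest for Efna4, Ephb2 and Sema6d and lowest for Plxna3. Likewise Efna2 and Sema3d were highest and Ephb4, Sema4d and Sema4f lowest in the duodenum. Genes of the colon lists could also differ between ileum and duodenum, such as Sema7a, highest in the ileum, and Epha7, highest in the duodenum. Plxnb1, Sema4a and Sema4b passed in 1 comparison, and Efna3, Epha1, Plxnd1, Sema6a, Sema6b and Sema6c in none. The 16 colon libraries did not overlap the 16 duodenum libraries for 10 genes (9.75% of all genes tested) or the 16 ileum libraries for 8 genes (7.14%), and no guidance gene separated ileum from duodenum in this way (1.46%). Robo1, Robo2, Nrp1, Nrp2, Plxnc1, Sema3c and Sema3e were apart from both small intestinal regions.

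**Figure D2:**
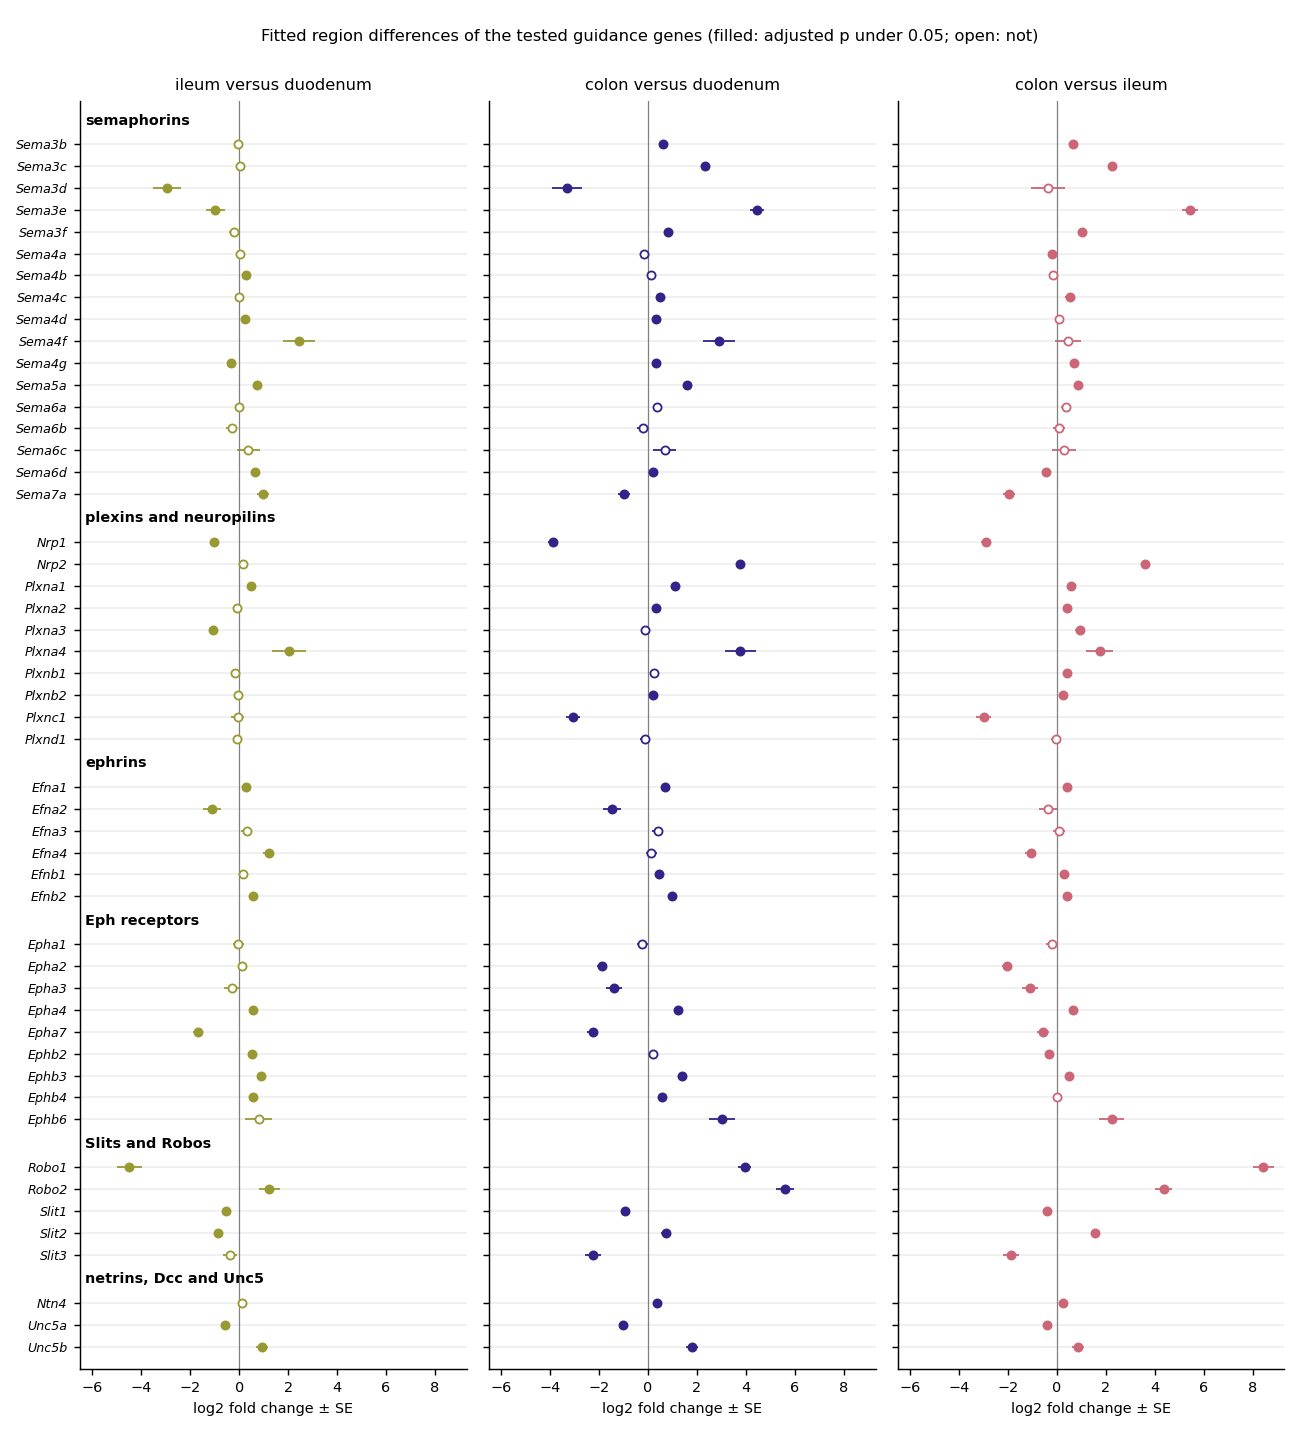
Fitted log2 fold change with its standard error for the 50 tested genes, grouped by family, between ileum and duodenum, colon and duodenum, and colon and ileum (filled, adjusted p under 0.05). The colon panels hold 38 filled points each, with Nrp1 and Plxnc1 far to the left and Nrp2, Sema3e, Robo1 and Robo2 far to the right. Fitted values of Robo1 in the ileum rest on 13 counts in all and depend on the prior count of the fit.

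Among the ligands, 9 of 17 tested semaphorins passed for ileum against duodenum (6 of them higher distally), 12 for colon against duodenum (10 higher) and 10 for colon against ileum (7 higher). The shares of all genes tested were 33.8%, 55.0% and 49.2%. Sema3c, a secreted class 3 semaphorin known to bind both neuropilins, had a lowest, median and highest library of 15.03, 25.7 and 41.7 CPM in the duodenum, 19.4, 26.5 and 42.5 CPM in the ileum, and 93.9, 132 and 165 CPM in the colon. Small intestinal regions overlapped throughout, and every colon library was above all others. Log2 fold changes of the colon were 2.32 against the duodenum (standard error 0.117, adjusted p = 1.33e-22, higher in 15 of 15 mice) and 2.27 against the ileum (standard error 0.117, adjusted p = 7.6e-22, 16 of 16 mice).

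Sema3e, which binds Plxnd1 without a neuropilin, was near the detection limit in the small intestine, from 0.145 to 2.65 CPM with a median of 0.874 in the duodenum and from 0 to 2.56 CPM with a median of 0.304 in the ileum. In the colon it ran from 8.62 to 47.0 CPM with a median of 18.9, so that no colon library overlapped the others. Its log2 fold change was 4.45 against the duodenum (standard error 0.293, adjusted p = 2.95e-18) and 5.43 against the ileum (standard error 0.331, adjusted p = 3.53e-19). Its receptor Plxnd1, a gene named after its values were seen, had a median of 16.99, 14 and 16.1 CPM in the duodenum, ileum and colon and did not pass in any comparison (adjusted p from 0.669 to 0.895).

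Sema5a, a transmembrane semaphorin with thrombospondin repeats, rose in steps along the gut, from a median of 51.7 CPM in the duodenum (42.0 to 74.4) to 94.2 CPM in the ileum (63.6 to 141) and 173 CPM in the colon (118 to 226). Neighbouring regions overlapped, but no colon library overlapped the duodenum. Log2 fold changes were 0.73 (standard error 0.0943) for ileum against duodenum, 1.61 (0.0956) for colon against duodenum and 0.89 (0.0940) for colon against ileum. In each of 15 mice both distal regions were above the duodenum. Sema3d was scarce, with 159 counts in all 16 duodenum libraries, 17 in the ileum and 23 in the colon, and it passed as higher in the duodenum than in the ileum (adjusted p = 5.8e-05) and the colon (adjusted p = 9.7e-06).

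Sema7a, a membrane-anchored semaphorin that signals through integrins and Plxnc1, was highest in the ileum. Its lowest, median and highest libraries were 2.62, 9.81 and 46.7 CPM in the duodenum, 11.1, 20.4 and 42.3 CPM in the ileum and 1.96, 6.18 and 10.1 CPM in the colon. All ileum libraries were above all colon libraries, while the duodenum overlapped both, its top value being the library of mouse 27. Ileum exceeded duodenum with a log2 fold change of 0.97, and in 14 of 15 mice (standard error 0.236, adjusted p = 0.00107), and with the library index, described further on, as a covariate this value was 0.20 (standard error 0.411, adjusted p = 0.827), or 1.32 (standard error 0.491, adjusted p = 0.135) when the library of mouse 27 was also left out. The colon was below the ileum (-1.95, standard error 0.249, adjusted p = 6.78e-09). Sema4a, the semaphorin of highest level per exon length, stayed between 75.0 and 162 CPM in all 48 libraries and passed as lower in colon against ileum (log2 fold change -0.20, standard error 0.0811, adjusted p = 0.0327). Without the ileum and colon libraries of mouse 12 the adjusted p was 0.120, and it was over 0.05 in 7 of the 17 fits that left out 1 mouse (mice 12, 18, 19, 21, 25, 30 and 31).

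**Figure D3:**
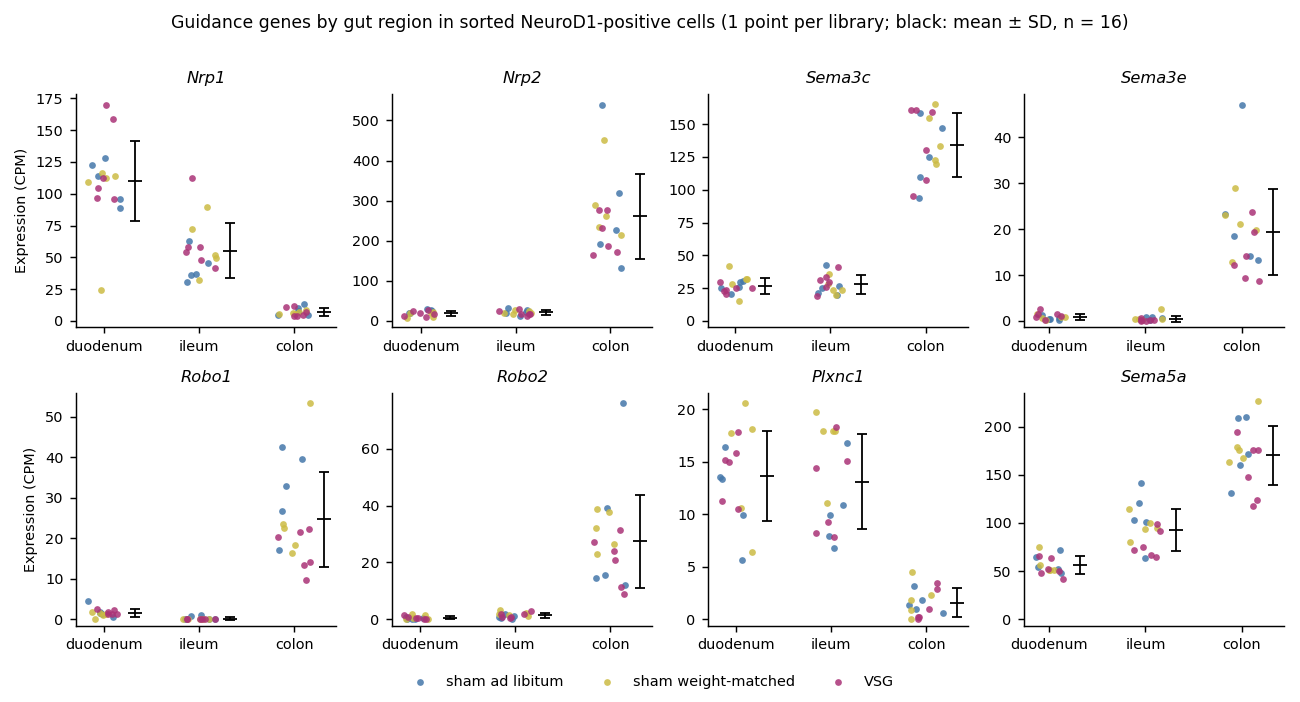
Expression in CPM of 8 guidance genes, 1 point per library coloured by operation, with the mean and SD of 16 libraries per region in black. For all of them except Sema5a the colon libraries lie apart from both duodenum and ileum, below them for Nrp1 and Plxnc1 and above them for the others. The operations overlap within each region. For Robo1 in the colon, sham ad libitum libraries run from 17.2 to 42.5 CPM and VSG libraries from 9.64 to 22.2 CPM.

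Among the receptors of semaphorins, 4 of 10 tested genes passed for ileum against duodenum, 7 for colon against duodenum and 9 for colon against ileum. Beside them stand 33.8%, 55.0% and 49.2% of all genes. In the colon the neuropilins differed from both small intestinal regions in opposite directions. Nrp1 had a lowest, median and highest library of 24.3, 112 and 170 CPM in the duodenum, 30.9, 50.9 and 112 CPM in the ileum and 3.69, 6.75 and 13.5 CPM in the colon. Duodenum and ileum overlapped, with mouse 27 the lowest duodenum library, and every colon library was below all others. Log2 fold changes were -1.01 for ileum against duodenum (standard error 0.177, adjusted p = 1.25e-05; -0.40 with the index as a covariate, adjusted p = 0.560), -3.89 for colon against duodenum (standard error 0.204, adjusted p = 1.04e-20) and -2.88 for colon against ileum (standard error 0.199, adjusted p = 2.07e-16).

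Nrp2 had 6.94, 19.9 and 30.05 CPM in the duodenum and 12.1, 19.7 and 31.7 CPM in the ileum, which overlapped (adjusted p = 0.544). In the colon it had 133, 234 and 539 CPM, above every small intestinal library. Its log2 fold change in the colon was 3.77 against the duodenum (standard error 0.183, adjusted p = 6.24e-22) and 3.62 against the ileum (standard error 0.183, adjusted p = 5.07e-21), in all 15 and all 16 mice. Taken per exon length within each library, a measure chosen after the values were seen, Nrp1 made up 80.9% to 92.5% of the neuropilin level in the duodenum (median 87.3%), 58.0% to 85.8% in the ileum (median 76.4%) and 2.18% to 5.95% in the colon (median 2.99%). The endothelial marker sum, given because neuropilins are also known from vessels, ran from 5.93 to 23.2 CPM in the duodenum, 12.4 to 61.1 CPM in the ileum and 10.98 to 37.0 CPM in the colon. Only 2 of the 4 endothelial markers were tested, and these 2 passed as higher in colon against duodenum. The sum was mostly Pecam1, with means of 14.2, 25.5 and 20.9 CPM in duodenum, ileum and colon. Other markers of the list were low, with Cdh5 at 0.137, 0.122 and 0.140 CPM, Tek at 0.267, 0.458 and 0.215 CPM and Kdr at 0.0652, 1.39 and 0.514 CPM.

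The bases before the starts of both neuropilins are shown because these genes differed in opposite directions between the colon and the small intestine. The bases before Sema3e are shown because it is a ligand that was apart in the colon. All stretches are as RefSeq gives them on build GRCm38.p6, in lower case and 5′ to 3′, with matches to the GC box (GGGCGG on either strand, overlaps included) in capitals. The Nrp1 stretch is chr8:128358823-128359072 on the plus strand, lying between exons of a longer annotated transcript, the Nrp2 stretch is chr1:62703067-62703284 on the plus strand and ends where the annotated exon begins, and the Sema3e stretch is chr5:14025026-14025275 on the plus strand.
Nrp1: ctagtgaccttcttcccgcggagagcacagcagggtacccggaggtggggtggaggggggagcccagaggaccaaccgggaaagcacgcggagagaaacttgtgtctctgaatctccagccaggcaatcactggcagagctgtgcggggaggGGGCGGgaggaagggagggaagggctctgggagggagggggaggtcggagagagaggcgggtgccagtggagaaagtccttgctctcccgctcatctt
Nrp2: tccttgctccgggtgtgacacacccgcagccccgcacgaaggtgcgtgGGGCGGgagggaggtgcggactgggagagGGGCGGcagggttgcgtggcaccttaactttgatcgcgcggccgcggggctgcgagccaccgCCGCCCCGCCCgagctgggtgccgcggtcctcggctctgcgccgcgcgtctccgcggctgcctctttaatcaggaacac
Sema3e: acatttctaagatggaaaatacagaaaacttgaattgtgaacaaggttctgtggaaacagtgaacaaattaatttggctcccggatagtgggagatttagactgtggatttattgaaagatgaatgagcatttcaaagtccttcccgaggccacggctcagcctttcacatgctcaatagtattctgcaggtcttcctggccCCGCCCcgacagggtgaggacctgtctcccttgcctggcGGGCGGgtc
In the 250 bases before the start Nrp1 held 1 GC box, Nrp2 held 5 and Sema3e held 2. The fifth box of Nrp2 lies 27 bases before the start, within 32 bases of annotated exon that are not printed. The box was found in 32.7% of all 32851 promoters of this length, and in 42 of the 58 guidance genes in the table. Here and for the motifs below, the share counts every listed start, several for some genes. Each guidance gene is counted by its first listed start only, so the units are unlike. The letters AGATAA of the Gata factors, TTTATG of the Cdx factors and CAAAGTCCA of Hnf4, searched on both strands because such factors are known in the gut epithelium, were in 9.99%, 10.8% and 0.384% of all promoters and in 2, 0 and 0 of the 58 guidance genes, none of them Nrp1, Nrp2 or Sema3e, and the letters TATAAA of the core promoter were in 12.4% of all promoters and in 2 of the 58. GC content of the 250 bases was 64.4% before Nrp1, 72.4% before Nrp2 and 48% before Sema3e, where the median of all promoters was 52.4%.

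Plxnc1, the plexin that binds Sema7a, ran from 5.63 to 20.6 CPM in the duodenum (median 14.3), from 6.78 to 19.7 CPM in the ileum (median 12.7) and from 0 to 4.54 CPM in the colon (median 1.16). No colon library overlapped the small intestine, and the colon was lower (log2 fold change -3.06 against the duodenum, standard error 0.293, adjusted p = 1.82e-12, and -2.99 against the ileum, standard error 0.295, adjusted p = 6.29e-12). Plxnb2, the plexin of highest level, kept within 350 and 593 CPM over all libraries and was slightly higher in the colon, by 0.21 against the duodenum (standard error 0.0689, adjusted p = 0.00852) and 0.24 against the ileum (standard error 0.0690, adjusted p = 0.0031). With the index as a covariate these values were 0.02 (standard error 0.153, adjusted p = 0.947) and 0.20 (standard error 0.0903, adjusted p = 0.0836). Plxna3, a partner of the neuropilins, was lowest in the ileum, with medians of 8.98, 4.29 and 8.14 CPM (log2 fold change -1.06 for ileum against duodenum, standard error 0.177, adjusted p = 3.93e-06, and 0.95 for colon against ileum, standard error 0.178, adjusted p = 1.47e-05). Plxna4 was scarce, with 11 counts in all duodenum libraries, 38 in the ileum and 121 in the colon, and passed in all 3 comparisons (adjusted p = 0.0223, 2.23e-06 and 0.00807). The first of these was lost without mouse 19 (adjusted p = 0.0929), mouse 22 (0.0650) or mouse 27 (0.0597), and with the index as a covariate it became 0.228 and the last 0.0612.

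Of 6 tested ephrins 4 differed in each comparison, where 33.8%, 55.0% and 49.2% of all genes did. The ephrins of high level were highest in the colon. Efna1 had medians of 26.3, 29.9 and 42.0 CPM in duodenum, ileum and colon, with ranges of 16.5 to 41.8, 22.2 to 41.9 and 26.8 to 54.9 CPM that overlapped (colon against duodenum 0.71, standard error 0.0984, adjusted p = 2.18e-08, 15 of 15 mice). With the index as a covariate that value was 0.33 (standard error 0.213, adjusted p = 0.273), or 0.74 (standard error 0.240, adjusted p = 0.0234) when the library of mouse 27 was also left out. Efnb1, a ligand of the Ephb receptors, had medians of 75.5, 82.8 and 102 CPM with overlapping ranges of 61.4 to 95.1, 65.0 to 118 and 85.4 to 142 CPM (colon against duodenum 0.45, standard error 0.0714, adjusted p = 4.14e-07, 15 of 15 mice). Efna4 peaked in the ileum, with medians of 3.05, 6.94 and 3.69 CPM (ileum against duodenum 1.21, standard error 0.233, adjusted p = 5.1e-05; colon against ileum -1.07, standard error 0.234, adjusted p = 0.000152), and 10.5% of its exon length overlaps a gene read from the other strand, which leaves its counts uncertain if strand was not used. Efna2 was highest in the duodenum, with medians of 2.48, 1.03 and 0.746 CPM (ileum against duodenum -1.12, standard error 0.368, adjusted p = 0.0154).

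Of 9 tested Eph receptors 5 passed for ileum against duodenum (4 of them higher distally), 7 for colon against duodenum (4 higher) and 7 for colon against ileum (3 higher). Over all genes 33.8%, 55.0% and 49.2% passed. Of the 5 Epha receptors tested, Epha2, Epha3 and Epha7 were lower in the colon than in both other regions, Epha4 was higher, and Epha1 did not pass. Epha2, known from many epithelia, ran from 23.1 to 95.5 CPM in the duodenum (median 31.99), 15.1 to 59.8 CPM in the ileum (median 43.4) and 4.41 to 18.1 CPM in the colon (median 10.5). The colon did not overlap the duodenum but did overlap the ileum, and was lower than either (-1.89, standard error 0.198, adjusted p = 3.2e-11, against the duodenum; -2.02, standard error 0.199, adjusted p = 8.66e-12, against the ileum), in 15 of 15 and 16 of 16 mice. Epha7 was highest in the duodenum, with a median of 17.6 CPM there (5.35 to 25) against 4.58 CPM in the ileum (2.01 to 12.1) and 3.47 CPM in the colon (1.54 to 6.61), and the ranges overlapped (ileum against duodenum -1.69, standard error 0.218, adjusted p = 1.9e-08; colon against duodenum -2.25, standard error 0.225, adjusted p = 3.77e-12). Colon against ileum gave Epha7 an adjusted p of 0.0405, which was over 0.05 in voom (0.10004), with no filter (0.0826), with the index as a covariate (0.0715), with both distal libraries of mouse 12 left out (0.0636), and without mouse 11, 12, 13, 16, 18, 24, 27, 28, 31 or 32 (0.0573 to 0.124). Epha3 was lower in level, with medians of 3.74, 2.71 and 1.19 CPM (colon against duodenum -1.39, standard error 0.329, adjusted p = 0.000342; colon against ileum -1.10, standard error 0.334, adjusted p = 0.00529), which with the index as a covariate were -0.22 (standard error 0.792, adjusted p = 0.877) and -0.89 (standard error 0.479, adjusted p = 0.144).

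Of the 4 Ephb receptors tested, Ephb3 and Ephb6 were highest in the colon, Ephb2 in the ileum, and Ephb4 was lowest in the duodenum. Ephb3 rose from a median of 23.1 CPM in the duodenum (18.3 to 30.9) to 41.1 CPM in the ileum (22.5 to 74.1) and 58.7 CPM in the colon (46.9 to 92.2), and colon and duodenum did not overlap. Its log2 fold change was 0.88 for ileum against duodenum (standard error 0.121, adjusted p = 7.29e-08) and 1.37 for colon against duodenum (standard error 0.121, adjusted p = 7e-14), in 15 of 15 mice each. Ephb4 was lower in the duodenum, with medians of 73.0, 108 and 119 CPM (ileum against duodenum 0.57, standard error 0.104, adjusted p = 2.05e-05; colon against duodenum 0.58, standard error 0.104, adjusted p = 4.68e-06). Ephb6, a receptor whose kinase is inactive, had medians of 0.300, 0.475 and 2.59 CPM (colon against duodenum 3.03, standard error 0.518, adjusted p = 2.11e-06; colon against ileum 2.24, standard error 0.506, adjusted p = 0.000218). The crypt and stem cell marker sum, in a system in which Ephb2 and Ephb3 are known crypt genes, was lowest in the colon (380 to 716 CPM) and ranged from 612 to 2150 CPM in the duodenum and 1166 to 4409 CPM in the ileum. Olfm4 carried most of that sum in the small intestine, with means of 899, 1682 and 4.95 CPM in duodenum, ileum and colon. Slc12a2 had means of 283, 471 and 458 CPM and Ascl2 of 2.79, 5.77 and 3.34 CPM. Of the 6 markers 3 passed as lower and 1 as higher in colon against duodenum. Against the ileum 5 passed as lower in the colon.

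Of 5 tested Slits and Robos 4, 5 and 5 differed in the 3 comparisons, where 33.8%, 55.0% and 49.2% of all genes did. Both tested Robo receptors were highest in the colon. Robo2 had a lowest, median and highest library of 0, 0.300 and 1.87 CPM in the duodenum, 0, 1.27 and 3.40 CPM in the ileum and 8.82, 25.3 and 76.0 CPM in the colon, which overlapped neither. Its log2 fold change was 5.60 against the duodenum (standard error 0.365, adjusted p = 1.03e-17) and 4.37 against the ileum (standard error 0.339, adjusted p = 5.55e-15), and 1.23 for ileum against duodenum (standard error 0.429, adjusted p = 0.0229; 0.0686 without mouse 19, 0.0557 without mouse 32 and 0.0501 without mouse 11). Robo1 had 0, 1.43 and 4.38 CPM in the duodenum and 9.64, 21.8 and 53.4 CPM in the colon, again without overlap. In the ileum 12 of 16 libraries had no Robo1 count and the highest had 1.11 CPM, 13 counts in all against 220 in the duodenum and 2739 in the colon.

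The mean of Robo1 was thus 184 times higher in the colon than in the ileum and 12.0 times higher in the duodenum than in the ileum (adjusted p = 4.87e-21 and 3.69e-09), so that Robo1 and Robo2 had opposite orders in the small intestine. The ileum mean rests on 4 libraries, and without that of mouse 32, the highest, the ratios were 356 and 23.3, and without any 1 of the others 172 to 268 and 11.3 to 17.5. Slits, the ligands of Robos, did not share 1 direction. Slit1 had medians of 14.7, 10.7 and 7.54 CPM in overlapping ranges, with colon below duodenum (-0.92, standard error 0.164, adjusted p = 4.35e-06). Its colon against ileum call (adjusted p = 0.0489) was lost in DESeq2 (0.0573), voom (0.0927), with no filter (0.0579) and without mouse 11, 16, 18, 19, 21, 22, 24, 27, 29, 30 or 32 (0.0503 to 0.128). With the index as a covariate Slit1 passed in no comparison (-0.18 for ileum against duodenum, adjusted p = 0.795, -0.44 for colon against duodenum, 0.419, and -0.26 for colon against ileum, 0.389). Slit3 had medians of 7.44, 5.65 and 1.43 CPM and was lower in the colon in 15 of 15 mice (-2.24, standard error 0.325, adjusted p = 7.76e-08). Slit2, which was outside the naming rule and was chosen after its values were seen, had medians of 10.9, 6.35 and 17.7 CPM and was higher in the colon than in the duodenum (0.72, standard error 0.176, adjusted p = 0.000501) and the ileum (1.58, standard error 0.184, adjusted p = 4.06e-10).

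Of the netrin family only Ntn4, Unc5a and Unc5b passed the filter. Ntn4, a laminin-related netrin, ran from 20.2 to 50.01 CPM in the duodenum, 23.4 to 52.2 CPM in the ileum and 33.6 to 64.9 CPM in the colon (colon against duodenum 0.38, standard error 0.108, adjusted p = 0.00239, 15 of 15 mice). The repulsive netrin receptors Unc5a and Unc5b went in opposite directions. Unc5a fell from a median of 53.8 CPM (25.1 to 71.5) in the duodenum to 36.9 CPM (19.3 to 56.8) in the ileum and 24.9 CPM (15.5 to 38.7) in the colon, with overlapping ranges (colon against duodenum -1.01, standard error 0.124, adjusted p = 1.07e-09, 15 of 15 mice). Unc5b rose from a median of 12.0 CPM (8.67 to 99.7, the top value from mouse 27) to 34.4 CPM (10.5 to 59.4) and 58.8 CPM (30.6 to 97.3), also with overlap (colon against duodenum 1.81, standard error 0.246, adjusted p = 3.15e-08, 14 of 15 mice; ileum against duodenum 0.93, standard error 0.244, adjusted p = 0.00249). With the library index described next as a covariate, the values of Unc5b were -0.22 for ileum against duodenum (standard error 0.371, adjusted p = 0.781) and 0.60 for colon against duodenum (standard error 0.437, adjusted p = 0.337), and when the duodenum library of mouse 27 was also left out they were 1.03 (standard error 0.421, adjusted p = 0.195) and 1.87 (standard error 0.460, adjusted p = 0.00268).

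The library index in the sample titles partly followed the region: of its 4 values, 1 marked 12 duodenum libraries only, 1 marked 4 duodenum, 7 ileum and 1 colon library, 1 marked 8 ileum and 4 colon libraries, and 1 marked 1 ileum and 11 colon libraries. With the index as a covariate 9, 23 and 29 guidance genes passed between ileum and duodenum, colon and duodenum, and colon and ileum, of which 6, 20 and 29 had also passed without it, and 11.3%, 28% and 37.8% of all genes passed. Of the calls of the 30 genes under the naming rule 13 of 18, 11 of 26 and 7 of 26 were lost. Between colon and duodenum those were Efna1, Efna2, Efnb1, Epha3, Ephb4, Ephb6, Plxnb2, Sema3d, Slit1, Slit3 and Unc5b, and between ileum and duodenum they were Efna1, Efna2, Efna4, Epha7, Ephb4, Nrp1, Plxna3, Plxna4, Sema3e, Sema7a, Slit1, Unc5a and Unc5b. Colon and ileum lost Efnb1, Epha3, Epha7, Ntn4, Plxna4, Plxnb2 and Slit1. Outside the naming rule Efnb2, Plxna2, Sema3b, Sema4d, Sema4f, Sema4g and Sema6d were also lost between colon and duodenum, and Efnb2 and Plxnb1 between colon and ileum. Between ileum and duodenum Efnb2, Epha4, Plxna1, Sema4b, Sema4d, Sema4f, Sema4g, Sema6d and Slit2 were lost as well. One of the 4 duodenum libraries that share an index with the ileum is that of mouse 27, and the other 3 are all from sham ad libitum mice. Unc5b had 13.1, 13.7 and 18.5 CPM in those 3 and 99.7 CPM in mouse 27. Fits without that library, chosen after seeing the data, gave 2, 16 and 31 calls with the index as a covariate (4.54%, 17.7% and 38.4% of all genes), all of them also called without it, and the 2 between ileum and duodenum were Epha7 (-1.58, standard error 0.471, adjusted p = 0.0400) and Robo1 (adjusted p = 0.00315). Within the index shared by 7 ileum and 4 duodenum libraries, a setting also chosen after seeing the data, 1 of 42 genes tested passed, Ephb3 (1.17, standard error 0.279, adjusted p = 0.0418), where 3.63% of all genes did, and 20 of the 22 genes called with all libraries kept their sign. With mouse 27 left out as well edgeR called 0 of 42 there (15 at an unadjusted p under 0.05; 3.89% of all genes passed, and no other tool was run), with 22 of 22 of the same sign. Within the index shared by 4 colon and 8 ileum libraries 22 of 44 passed, where 28.8% of all genes did, and 36 of 36 kept their sign. The colon against ileum values within that index were -3.32 for Nrp1 (standard error 0.244), 3.41 for Nrp2 (0.288), 2.30 for Sema3c (0.192), 5.21 for Sema3e (0.476), 3.67 for Robo2 (0.359) and -2.40 for Plxnc1 (0.520). Colon and duodenum shared an index in 1 colon library only, so no within-index value was computed for them. The part of the index in the other differences was not tested and, for the 12 duodenum libraries, cannot be told apart from the region.

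Without the duodenum library of mouse 27 there were 30, 40 and 39 calls among 51 tested for ileum against duodenum, colon against duodenum and colon against ileum. Of all genes 38.3%, 56.4% and 50.1% passed there. Without the ileum and colon libraries of mouse 12 there were 28, 38 and 36 among 51 tested (31.5%, 53.8% and 46.9% of all genes). Leaving out each mouse in turn gave 25 to 30, 37 to 40 and 34 to 38 among 49 to 51 tested. In those fits 29.1% to 38.2%, 52.3% to 55.4% and 46.2% to 49.3% of all genes passed.

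The 3 operations were then compared, averaged over the regions and inside each. In the averages the edgeR and DESeq2 fits held no term for the mouse, so up to 3 libraries of 1 mouse counted as separate. For the guidance genes no difference between operations passed in edgeR without the index as a covariate and with all libraries. In VSG against sham ad libitum 0 of 50 passed (0% of all genes; 6 at an unadjusted p under 0.05), in VSG against weight-matched 0 of 50 (0.245%; 9 unadjusted), in weight-matched against ad libitum 0 of 50 (0.0529%; 6 unadjusted), and in the test of whether operation effects differ by region 0 of 50 (0%; 4 unadjusted). Of all genes 5.53%, 9.92%, 6.39% and 4.90% had an unadjusted p under 0.05 in these 4 edgeR tests. DESeq2 called 1 guidance gene in each of the first 2 comparisons, Robo1 (26 of all 15126 genes called) and Epha1 (102 called). In the others it called 0 guidance genes (13 and 10 of all genes). limma voom, given a random block for each mouse, called 0 guidance genes in all 4. With the index as a covariate edgeR called Sema6d in VSG against weight-matched mice (log2 fold change 0.34, standard error 0.0763, adjusted p = 0.0387; 0.0352 without the duodenum library of mouse 27). In the 9 comparisons of operations inside single regions edgeR called 0 of 450 tests (0.0382% over all genes; 37 unadjusted) and DESeq2 called 3, all between VSG and weight-matched mice in the duodenum. The index covariate gave 2 calls there, Epha1 (1.22, standard error 0.305, adjusted p = 0.0330) and Sema3b (0.72, standard error 0.175, adjusted p = 0.0315) in weight-matched against ad libitum mice, and neither passed without the library of mouse 27. Sema6d and Sema3b were named after their values were seen.

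Epha1, a receptor of A-type ephrins, had the lowest p in VSG against weight-matched mice (log2 fold change -0.80, standard error 0.220, adjusted p = 0.118). In the duodenum of weight-matched mice its libraries were 12.4, 12.9, 13.96, 14.99 and 102 CPM, against 7.76 to 17.2 CPM after VSG (median 9.98), and in the ileum they were 16.8, 21.6, 25, 25.8 and 30.6 CPM against 6.72 to 21.4 CPM (median 13.4). The groups overlapped in each region, and the highest duodenum value was that of mouse 27. Without that library the difference was -0.41 (standard error 0.1496, adjusted p = 0.303). Over all settings the adjusted p ran from 0.0331 to 0.674.

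Inside the duodenum the comparison of VSG with weight-matched mice gave Epha1 an adjusted p of 0.0720, Sema6a 0.0805 and Unc5b 0.155, the last 2 being genes named after their values were seen. All 3 had the library of mouse 27 as their highest, with 102 CPM of Epha1, 213 CPM of Sema6a and 99.7 CPM of Unc5b against at most 18.9, 63.0 and 21.6 CPM in the other 15 duodenum libraries. DESeq2 called all 3 (adjusted p = 0.0124, 0.0156 and 0.0365). In that library 13 of the 50 tested guidance genes were above all other duodenum libraries and 18 were below them, where 25.2% and 24.9% of all genes were, so 26% and 36% of the guidance genes stood outside.

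Robo1 had the lowest p in VSG against sham ad libitum (adjusted p = 0.215) and in weight-matched against ad libitum (adjusted p = 0.566). In the colon its libraries were 17.2, 26.7, 33.0, 39.7 and 42.5 CPM in sham ad libitum, 16.4, 18.2, 22.5, 23.6 and 53.4 CPM in weight-matched and 9.64, 13.4, 14.2, 20.2, 21.5 and 22.2 CPM in VSG mice, which overlapped (VSG against ad libitum in the colon -0.92, standard error 0.373, unadjusted p = 0.0177, adjusted p = 0.777). In the ileum it had 12 counts in all sham ad libitum libraries, 1 in weight-matched and 0 in VSG libraries, so that a fitted fold change over the regions depends on the prior count and is not given. Over all settings the adjusted p for VSG against ad libitum ran from 0.0276 to 0.9998.

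**Figure D4:**
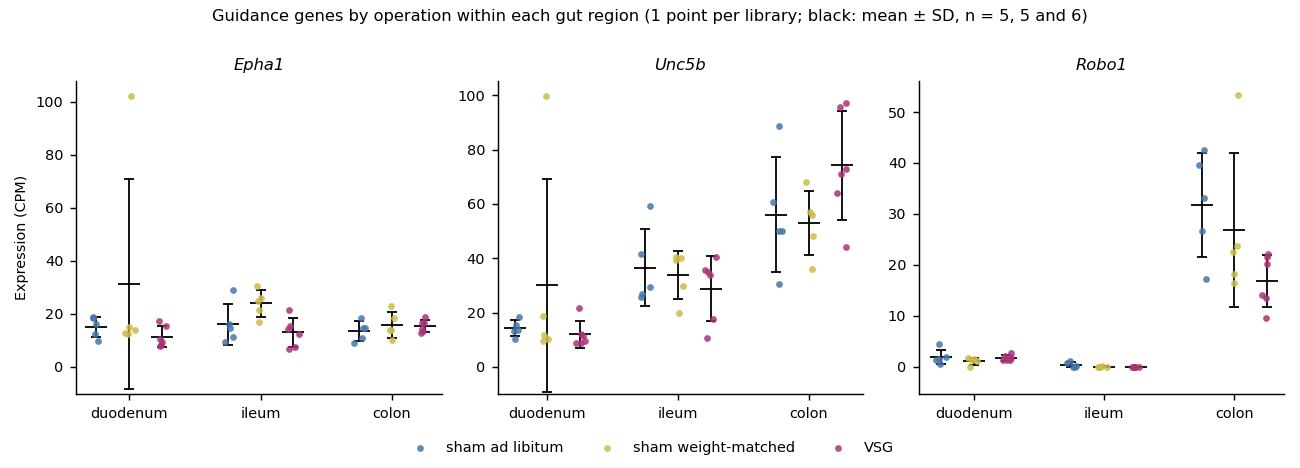
Expression in CPM of Epha1, Unc5b and Robo1 in the 9 groups, 1 point per library, with mean and SD (per region n = 6 for VSG and 5 for each sham group). A single weight-matched duodenum library, at 102 CPM of Epha1 and 99.7 CPM of Unc5b, carries the wide error bars of these genes in that group. In the weight-matched colon 1 library lies at 53.4 CPM of Robo1, above the others at 16.4 to 23.6 CPM. The operations overlap in each region.

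Further genes of the pathway were read from 2 lists. Of 43 other guidance ligands, receptors and co-receptors 37 were tested, and 22 differed between ileum and duodenum (14 higher), 29 between colon and duodenum (19 higher) and 26 between colon and ileum (18 higher), with a median log2 fold change of 0.08, 0.45 and 0.34. Those are 59.5%, 78.4% and 70.3% of the list, beside the 33.8%, 55.0% and 49.2% of all genes tested. Of 53 intracellular signalling genes 50 were tested, and 19 (13 higher), 37 (25 higher) and 33 (21 higher) differed, which is 38%, 74% and 66% of that list beside the same shares of all genes, with medians of 0.08, 0.19 and 0.17. None of either list passed between operations averaged over regions. As examples chosen after their values were seen, the neuropilin-associated adhesion molecule L1cam was higher in the colon (137 ± 22.5 CPM, SD, n = 16) than in the duodenum (54.9 ± 9.295 CPM, SD, n = 16), a log2 fold change of 1.31 (standard error 0.0898). Neo1, the neogenin receptor of netrins, was lower in the colon (105 ± 13.3 CPM) than in the duodenum (192 ± 25.6 CPM), by -0.87 (standard error 0.0738). Among signalling genes the Slit-Robo GTPase-activating protein Srgap3 had 28.6 ± 5.13 CPM in the colon and 5.38 ± 1.17 CPM in the duodenum (2.38, standard error 0.124), while Pak3, a kinase activated by Rac and Cdc42, had 2.34 ± 1.96 CPM and 44.6 ± 15.1 CPM (-4.22, standard error 0.285).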

How the data were processed

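Libraries were made by the authors from sorted cells with the SMARTer stranded total RNA-seq pico v2 kit, and read as single-end 50-base reads. Per the labels and the study's methods, reads were aligned with STAR 2.5.1 to GRCm38 with Ensembl annotation. The deposited values are raw read counts per gene, with no normalization. The strand setting used in counting was not given in the sources used here.

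Genes were filtered with filterByExpr over the 9 groups of operation and region, which left 15126, and scaled by TMM. A model of 9 group means was fitted with the quasi-likelihood test of edgeR 4.0.16 in R 4.3.3, and p-values were adjusted by Benjamini-Hochberg over all tested genes, with a threshold of 0.05. Each region or operation contrast averaged its groups equally. limma 3.58.1 voom and DESeq2 1.42.0 served as alternatives. The scripts were tested on simulated data. Exon lengths came from GENCODE M21, which matched 53360 of 53465 gene identifiers, and promoters from RefSeq GRCm38.p6, which held 58 of the 68 genes.

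Genes named with values were the 2 of highest CPM per kb in each family, the 6 of largest change in each direction of each region comparison among those that passed with a mean of at least 1 CPM in the higher region, the gene of lowest p in each comparison of operations, and genes said to be chosen after their values were seen. The genes, lists and tests were chosen with earlier results of these data known. For 46 same-mouse library pairs, deviations from the group means correlated with a median of 0.111 (-0.070 to 0.391), and 25 pairs were over 0.1. The pairing comes from the mouse number in the sample descriptions.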

Additional observations from a re-analysis of the deposited data

Results flagged for a closer look

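In 235 sets of libraries of 1 gene in 1 group, 18 had a highest or lowest library whose gap to its nearest neighbour, as a share of the whole range of the group, exceeded Dixon's 95% critical value. Chance gives about 1 in 20. The duodenum library of weight-matched mouse 27 held 5 of the 18, with gaps of 0.971 for Epha1, 0.936 for Epha2, 0.928 for Nrp1, 0.901 for Unc5b and 0.798 for Sema7a. In other weight-matched libraries the gaps were 0.808 for Efnb1 and 0.787 for Plxnc1 in the ileum of mouse 21, 0.756 for Sema5a in the duodenum of mouse 21, and 0.804 for Robo1 and 0.745 for Sema5a in the colon of mouse 31. In sham ad libitum colon libraries the gaps were 0.9 for Epha2 in mouse 32, 0.82 for Epha7 in mouse 19 and 0.733 for Plxna3 in mouse 13. After VSG they were 0.636 for Efnb1 in the colon of mouse 28, 0.7 for Ephb6 in the colon of mouse 30, 0.766 for Nrp1 in the ileum of mouse 18, 0.64 for Sema7a in the ileum of mouse 11 and 0.737 for Unc5b in the duodenum of mouse 28.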

How the results depend on the processing

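With the library index as a covariate the count of guidance genes that passed was 9 for ileum against duodenum and 23 for colon against duodenum, and within single index values it was 1 for ileum against duodenum and 22 for colon against ileum. When the duodenum library of mouse 27, 1 of 4 duodenum libraries that share an index with the ileum, was also left out, these were 2 and 16 with the covariate and 0 for ileum against duodenum within the shared index (edgeR, 15 at an unadjusted p under 0.05). With the covariate and all libraries 13, 11 and 7 calls of the 30 genes under the naming rule were lost between ileum and duodenum, colon and duodenum, and colon and ileum. In that fit the ileum against duodenum log2 fold change became -0.0025 for Efna1 (adjusted p = 0.9997, edgeR) and -0.22 for Unc5b (adjusted p = 0.781, edgeR). Without mouse 27 as well these were 0.40 (adjusted p = 0.388) and 1.03 (adjusted p = 0.195). The cause was not tested. Between operations, DESeq2 called 1 guidance gene in VSG against ad libitum (26 of all 15126 genes), 1 in VSG against weight-matched (102 of all genes) and 3 inside single regions. The index covariate called 1 in VSG against weight-matched (Sema6d, also without mouse 27) and 2 inside single regions (Epha1 and Sema3b, weight-matched against ad libitum, duodenum, none of them without mouse 27). The fits within an index or without mouse 27 and with the index were chosen after seeing the data. Leaving out 1 mouse at a time gave 0 to 2 calls inside single regions, which were Epha1 without weight-matched mouse 16, 21, 29 or 31 and Sema6a without mouse 16, 21 or 31. With the mouse as a fixed replicate block 27, 40 and 38 of 50 guidance genes passed for ileum against duodenum, colon against duodenum and colon against ileum. Of all genes 35.2%, 56.2% and 51.3% did. With voom and a random replicate block 28, 41 and 37 of 50 passed (37.6%, 58.7% and 51.4% of all genes). Low counts limit Robo1, Sema3d and Plxna4 in the small intestine.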
